A study of Mus musculus with 15 samples.

Results

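The 6 genes *Ezh1*, *Ezh2*, *Eed*, *Suz12*, *Setd2* and *Nsd1* encode the core of the machinery that methylates lysines 27 and 36 of histone H3, and were chosen by symbol among the 23235 genes of an RNA-seq table of adult mouse cortex. Each was measured in 4 groups of male mice, with 1 FPKM value (fragments scaled to transcript length and to the number of mapped fragments) per group. The groups were wild type (WT) C57BL/6J mice at Zt +6, in the light phase (3 mice), their *Snord116del* (+/-) littermates of the B6(Cg)-Snord116tm1.1Uta/J line at Zt +6 (2 mice), WT mice at Zt +16, in the dark phase (2 mice), and *Snord116del* mice at Zt +16 (2 mice). *Snord116del* mice carry a paternally inherited deletion of the *Snord116* cluster, from which the *116HG* long non-coding RNA is made, and the deletion is not limited to the brain. The second assay was chromatin isolation by RNA purification (ChIRP), in which biotinylated oligos pull *116HG* and its bound DNA out of cross-linked brain chromatin. It gave 5 peak lists of 1 brain library each, namely 2 lists from WT brain with *116HG* oligos, 1 from WT brain with non-specific control (NSC) oligos, and 1 each from *Snord116del* brain with *116HG* and with NSC oligos.

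Polycomb repressive complex 2 (PRC2) places methyl groups on H3K27, a mark of silenced developmental genes. Its catalytic subunit is EZH2 or EZH1, and neither works without the partners EED, which reads the mark, and SUZ12, which holds the complex together. EZH2 is typical of dividing cells and EZH1 of tissues that have stopped dividing, such as the adult brain. H3K36 is methylated in active chromatin. SETD2 travels with elongating RNA polymerase II and adds the third methyl group over gene bodies. NSD1 places the lower states of the mark, and loss of 1 copy of its human gene causes the overgrowth disorder Sotos syndrome. Methylated H3K36 hinders PRC2 on the same histone tail.

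The *116HG* peaks at these genes are shown first, because 2 of the 5 lists met at a single stretch of bases. It lay in an intron of *Nsd1*, where the peak of WT *116HG* replicate 1 (chr13:55366513-55366590, mm9) overlapped that of replicate 2 (chr13:55366499-55366565) by 53 bases. The other replicate 2 peak in *Nsd1* (chr13:55352189-55352269) and an intron peak of replicate 1 in *Eed* (chr7:97128161-97128223) are shown for comparison, since both hold the same kind of tract. *Eed* lies on the minus strand and is written on it, and the *Nsd1* peaks are written on the plus strand of the gene. Capitals mark an unbroken run of at least 20 A or T.
*Nsd1* intron, both replicates: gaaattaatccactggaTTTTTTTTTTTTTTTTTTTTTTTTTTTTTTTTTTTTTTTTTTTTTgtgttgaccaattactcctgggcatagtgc
*Nsd1* intron, replicate 2: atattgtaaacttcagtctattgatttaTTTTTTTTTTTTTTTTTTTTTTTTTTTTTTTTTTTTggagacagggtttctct
*Eed* intron, replicate 1: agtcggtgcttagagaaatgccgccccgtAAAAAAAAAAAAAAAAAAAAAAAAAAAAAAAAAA

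The run was 45 T in the shared *Nsd1* peak, 36 T in the second *Nsd1* peak and 34 A in the *Eed* peak. Such runs stood in 9.7% of the replicate 1 peaks and 32.6% of the replicate 2 peaks over the whole lists. Among peaks that directly overlapped one of the other replicate, the share was 85.7% in replicate 1 and 85.2% in replicate 2. In the controls, WT NSC had a share of 4.5%, *Snord116del* *116HG* one of 0.236% and *Snord116del* NSC one of 0.471%. The part of these runs in the peaks at *Nsd1* and *Eed* was not tested. The middle 32 bases of the shared peak of replicate 2 were all T, a word that the genome holds 9439 times, and those of the second *Nsd1* peak occurred 42 times. The only other replicate 2 peak at the 6 genes, in an intron of *Setd2* (chr9:110488142-110488226), had no such run, but its middle 32 bases occurred 242 times. All 43 replicate 1 peaks at the genes had middle 32 bases found once in the genome.

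The replicate 1 peaks had another character. They are shown by 3 examples in *Setd2* and *Nsd1*, the pair of H3K36 enzymes. The first is the *Setd2* sequence before the annotated start (chr9:110435003-110435100), with CG dinucleotides in capitals. The other examples are the middle 120 bases of the strongest peak in a long internal coding exon, *Setd2* exon 3 (chr9:110449979-110450098) and *Nsd1* exon 5 (chr13:55348552-55348671), in which no run reached 20 A or T. All are written on the plus strand, which is the strand of both genes.
*Setd2* before the start: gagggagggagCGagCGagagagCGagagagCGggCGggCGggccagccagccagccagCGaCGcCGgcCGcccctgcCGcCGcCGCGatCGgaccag
*Setd2* exon 3: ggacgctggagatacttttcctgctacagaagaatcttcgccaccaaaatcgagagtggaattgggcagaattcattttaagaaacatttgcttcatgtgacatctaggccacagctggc
*Nsd1* exon 5: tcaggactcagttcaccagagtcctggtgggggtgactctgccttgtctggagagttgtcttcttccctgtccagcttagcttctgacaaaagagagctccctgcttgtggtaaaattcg

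The 98 bases before the *Setd2* start held 15 CG dinucleotides at 79.6% GC, whereas the stretches of *Setd2* exon 3 and *Nsd1* exon 5 had 45% and 51.7% GC. Over the 43 replicate 1 peaks at the genes the median GC content was 43.8%, with a range of 21.8% to 80.9%, against a median of 47.7% over the whole list. The 3 replicate 2 peaks had a median of 18.5%, against 35.2% over their list.

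Peaks were counted inside a gene or within 2 kb of it. In WT *116HG* replicate 1, 5 of the 6 genes had a peak, where 59.4% of the 21853 annotated genes had one. In replicate 2, 2 of the 6 had one, *Nsd1* and *Setd2*, where 13.9% of all genes had one. None of the 6 genes had a peak in the 3 control lists, in which 2.3% (WT NSC), 2.26% (*Snord116del* *116HG*) and 7.88% (*Snord116del* NSC) of all genes had one. No control peak at the genes allows up to 0.0822%, 0.234% and 0.0878% of those lists, which hold only 3648, 1280 and 3418 peaks against 78033 in replicate 1 and 11145 in replicate 2. The nearest control peak was 4356 bp from *Setd2*, in the neighbouring gene *Nradd*. The 43 replicate 1 peaks were 0.0551% of their list, with an exact 95% binomial interval of 0.0399% to 0.0742%, and the 3 of replicate 2 were 0.0269%, with an interval of 0.00555% to 0.0786%. These intervals cover counting error only.

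*Nsd1* (chr13:55311143-55419686, plus strand) held most of the peaks. It had 27 in replicate 1, more than 98.9% of genes, and 2 in replicate 2. Of the 27, 13 had their middle in coding sequence, 11 in the 3′ untranslated region (UTR), 2 in introns and 1 beyond the gene, in the UTR of *Rab24*. Exon 5 carried 4 peaks with 41.04-fold to 102.02-fold enrichment over input, and the last exon, exon 23, carried 14 peaks of 20.72-fold to 102.6-fold. The intron peak with the run of T had the highest fold over input of the gene, 139.7.

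*Setd2* (chr9:110435101-110521137, plus strand) had 7 peaks in replicate 1 and 1 in replicate 2. Of the 7, 5 lay in coding exon 3, at 164.17-fold, 71.82-fold, 42.51-fold, 70.25-fold and 30.78-fold over input. The others were a 26.47-fold peak across the annotated start and a 52.63-fold peak in the 3′ UTR. The replicate 2 peak lay in an intron, 32648 bp from the nearest replicate 1 peak, so the replicates marked different places in this gene.

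The PRC2 genes carried fewer peaks. *Ezh1* (chr11:101052429-101087777, minus strand) had 6 in replicate 1, of which 4 had their middle in a UTR, 1 in coding exon 3, and 1 outside the gene in the UTR of its neighbour *Cntnap1*. The *Cntnap1* peak had the highest fold, 194.95, and the next, 184.69, was in the untranslated exon 2 of *Ezh1*. *Eed* (chr7:97103166-97129493, minus strand) had 2 peaks, the intron peak above at 96.95-fold and a 71.82-fold peak in the UTR. *Suz12* (chr11:79806608-79847625, plus strand) had 1 peak of 31.91-fold in its last exon. *Ezh2* (chr6:47480273-47545340, minus strand) had none, and the nearest peak was 4128 bp away in the UTR of *Cul1*.

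**Figure D1:**
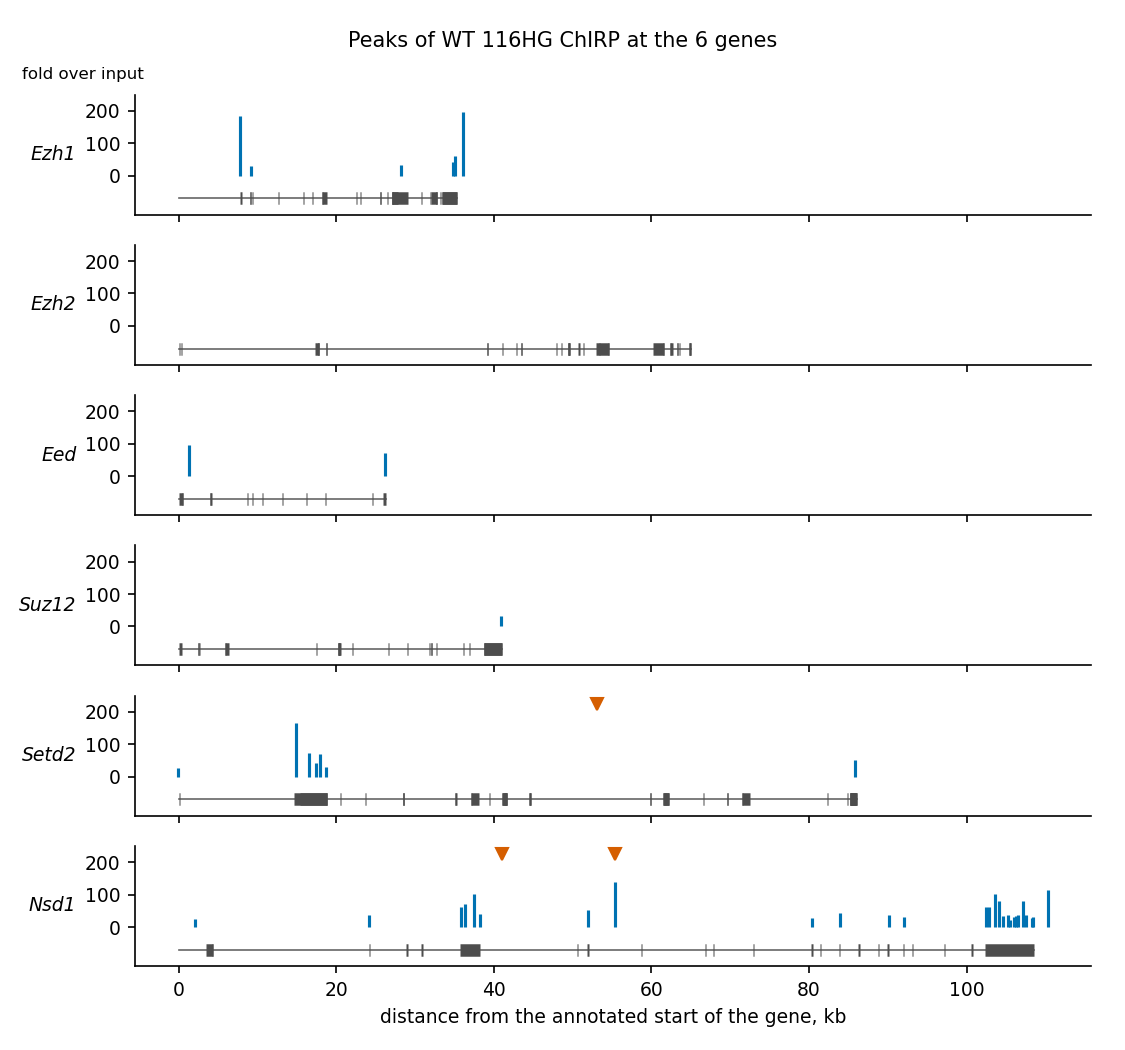
Peaks of WT 116HG ChIRP inside or within 2 kb of the 6 genes, drawn against the distance in kb from the annotated start, in the direction of transcription. Blue lines are replicate 1 peaks with the fold over input as height, orange triangles are replicate 2 peaks, for which no fold was given and whose height has no meaning, and dark boxes are exons of all annotated transcripts. The replicate 1 peaks of Nsd1 and Setd2 gather over the long exons, and the 3 replicate 2 peaks stand in introns.

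Exons of the gene itself held the middle of 37 of the 43 replicate 1 peaks at the genes (86%). Exons of any gene, a wider measure, held the middle of 71.6% of all replicate 1 peaks. The peaks in the UTRs of *Cntnap1* and *Rab24* are not among the 37. In the same way, exons held the middle of none of the 3 replicate 2 peaks at the genes, and of 2.27% of all replicate 2 peaks. Per kilobase of merged exon, the replicate 1 peaks with their middle in an exon numbered 1.83 in *Nsd1*, 0.672 in *Ezh1*, 0.569 in *Setd2*, 0.451 in *Eed*, 0.202 in *Suz12* and 0 in *Ezh2*.

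The study called a peak replicated when the other WT *116HG* library had one within 10 kb. By that rule 7 replicate 1 peaks of *Nsd1* and 1 of *Ezh1* were replicated, so 2 of the 6 genes had a replicated peak, where 10.9% of all genes had one. Both replicate 2 peaks of *Nsd1* were replicated too, and 8.03% of all genes had such a replicate 2 peak. The *Ezh1* case is the *Cntnap1* peak, 9803 bp from a replicate 2 peak. Of the 7 at *Nsd1*, 6 lay 2752 to 6012 bp from the other library's peak, and the seventh is the overlap at the run of T. A direct overlap was found at 3.33% of all genes. With peaks holding a run of at least 20 A or T left out of both lists, an alternative chosen after the data were seen, *Nsd1* alone kept a replicated peak within 10 kb and none of the 6 genes had a direct overlap.

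In the RNA-seq table, the H3K36 enzymes and *Ezh1* were the most abundant of the 6 transcripts, and the PRC2 genes *Ezh2* and *Eed* the least. FPKM is scaled to transcript length, so levels can be set side by side between genes within that scaling. Differences between the groups still moved with transcript length, as given below, and the orders and ratios of levels carry that limit. No spread between mice can be seen, since the table has 1 value per group, so no test was run on these levels. For the same reason neighbours in the order of levels cannot be told to differ beyond their spread. The depth behind each FPKM value is not recorded in the table. In bulk cortex, fewer cells of a type and less RNA per cell cannot be told apart.

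In WT, *Ezh1* stood at 4.27 FPKM at Zt +6 and 3.11 FPKM at Zt +16, and in *Snord116del* at 6.74 and 4.82 FPKM. It was higher in *Snord116del* at both times as deposited. *Ezh2*, the other catalytic subunit, stood at 0.44 and 0.172 FPKM in WT at these times, and at 1.39 and 0.246 FPKM in *Snord116del*. It stayed below 1 FPKM in all groups except *Snord116del* at Zt +6. *Ezh1* was thus 9.71 times as abundant as *Ezh2* in WT at Zt +6, 4.87 times in *Snord116del* at Zt +6, and 18.1 and 19.6 times in WT and *Snord116del* at Zt +16. The Zt +16 ratios rest on *Ezh2* levels of 0.172 and 0.246 FPKM, within the range of the PRC2 targets given below, and are uncertain for that reason.

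*Eed*, the reader subunit, stood at 0.648 FPKM at Zt +6 and 0.402 FPKM at Zt +16 in WT, and at 1.32 and 0.502 FPKM in *Snord116del*. *Suz12*, the scaffold subunit, stood at 1.1 and 0.689 FPKM in WT and at 3.5 and 0.826 FPKM in *Snord116del*, in the same order of times. Both were below the level of *Ezh1* in every group.

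*Setd2*, at Zt +6 and then Zt +16, stood at 3.38 and 2.43 FPKM in WT and at 9.56 and 2.78 FPKM in *Snord116del*. *Nsd1* stood at 2.38 and 1.1 FPKM in WT and at 8.38 and 1.27 FPKM in *Snord116del*. For both, *Snord116del* at Zt +6 stood apart from the other 3 groups. The order of the 6 levels from high to low was *Ezh1*, *Setd2*, *Nsd1*, *Suz12*, *Eed*, *Ezh2* in all groups except *Snord116del* at Zt +6, where it was *Setd2*, *Nsd1*, *Ezh1*, *Suz12*, *Ezh2*, *Eed*.

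**Figure D2:**
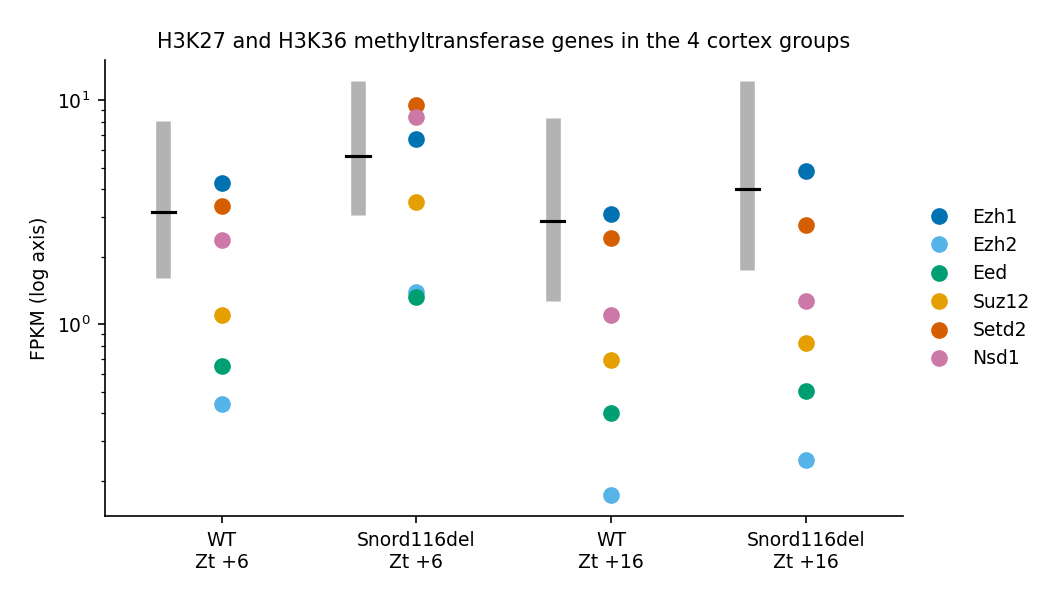
FPKM on a log axis of the 6 genes (coloured points) in the 4 cortex groups, 1 value per group. The grey bar spans the middle 50% of the 10297 tested genes, whose mean over the groups is 1 FPKM or more, and the black line is their median. All 6 genes are highest in Snord116del at Zt +6, as is the case for 57.7% of those genes.

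All 6 genes were highest in *Snord116del* at Zt +6 and lowest in WT at Zt +16 as deposited, although scaling to the same median or quantile normalization put *Ezh1* highest in WT at Zt +6, and these and scaling to the same total put the lowest level of 4 or all 6 of them in *Snord116del* at Zt +16. A gene was taken as tested when its mean over the groups reached 1 FPKM, which left 10297. Of these, 57.7% were highest in the first group and 50.3% lowest in the second. A gene that was low elsewhere could be tested through a high level in 1 group alone, such as *Snord116del* at Zt +6. The groups came in the order *Snord116del* Zt +6, WT Zt +6, *Snord116del* Zt +16, WT Zt +16 for 5 of the 6 genes and for 26.2% of the tested genes. *Ezh1* was the exception, with *Snord116del* at Zt +16 above WT at Zt +6.

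At Zt +6, *Nsd1*, *Setd2* and *Suz12* were higher in *Snord116del* than in WT by more than the median gene. Differences are given as the log2 ratio of FPKM + 1, and a gene passed the rule when FPKM + 1 differed 1.5-fold or more and the higher group reached 1 FPKM. The mean of *Ezh2* and *Eed* was below 1 FPKM, so 4 of the 6 genes were tested. Of these 4, *Nsd1* (1.47), *Setd2* (1.27) and *Suz12* (1.10) passed the rule in the higher direction, as did 49.3% of all tested genes, while 7.62% passed it in the lower direction. *Suz12* was at 1.1 FPKM in WT at Zt +6 and below 1 FPKM in both genotypes at Zt +16. It was thus tested only through its level in *Snord116del* at Zt +6. *Ezh1* (0.56) did not pass. *Ezh2* (0.73) and *Eed* (0.49) lay outside the test. The median of all tested genes was 0.57, so that relative to it *Nsd1* was at 0.90, *Setd2* at 0.70, *Suz12* at 0.53, *Ezh2* at 0.16, *Ezh1* at -0.01 and *Eed* at -0.08. Adding 1 FPKM shrinks the ratios of low levels, and this order depended on it. The plain FPKM ratio was 3.52 for *Nsd1*, 3.18 for *Suz12*, 3.15 for *Ezh2*, 2.83 for *Setd2*, 2.04 for *Eed* and 1.58 for *Ezh1*. With 0.1 FPKM added instead (a pseudocount of 0.1), *Ezh2* was at 1.46 and *Setd2* at 1.47. *Nsd1* was above 93% of tested genes and *Setd2* above 86.2%. After scaling all groups to a common median, *Nsd1* (0.79) alone passed, as did 15% of tested genes as higher and 24.4% as lower, and *Ezh1* was lower in *Snord116del* (-0.14).

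**Figure D3:**
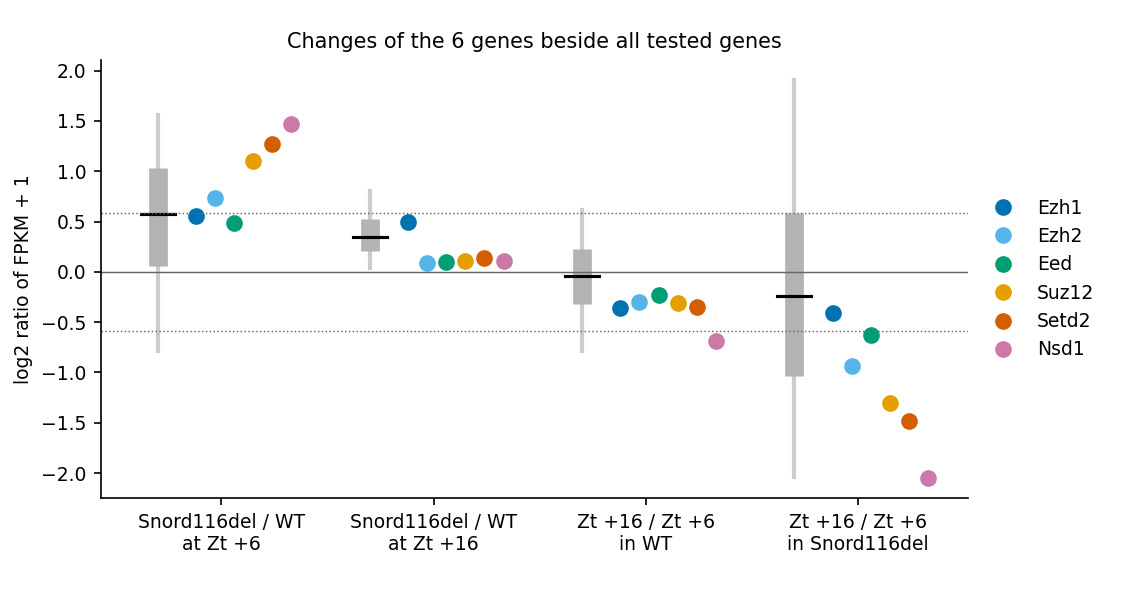
Log2 ratio of FPKM + 1 for the 6 genes (coloured points) in each of the 4 comparisons. Grey bars span the middle 50% and thin lines the middle 90% of the tested genes, black lines are their medians, and dotted lines mark a 1.5-fold difference. The points of Suz12, Setd2 and Nsd1 lie far above 0 at Zt +6 and close to it at Zt +16.

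The difference at Zt +6 moved with transcript length over all genes, and the 3 genes past the rule have long transcripts. The longest annotated transcript was 12784 bp for *Nsd1*, 8350 bp for *Setd2*, 4373 bp for *Suz12*, 4207 bp for *Ezh1*, 2652 bp for *Ezh2* and 2065 bp for *Eed*. In 20 equal classes of tested genes by length, the median log2 ratio went from -0.47 in the shortest to 1.33 in the longest class, which holds *Nsd1* and *Setd2*. The class of *Suz12* and *Ezh1* had a median of 0.87, and the values were 0.45 for *Ezh2* and 0.34 for *Eed*. Relative to their class, *Ezh2* was at 0.28, *Suz12* at 0.23, *Eed* at 0.15, *Nsd1* at 0.14, *Setd2* at -0.06 and *Ezh1* at -0.32. None of the 4 tested genes then passed the rule, where 12.4% of tested genes passed it as higher and 13.7% as lower. The part of length in the difference was not tested otherwise.

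**Figure D4:**
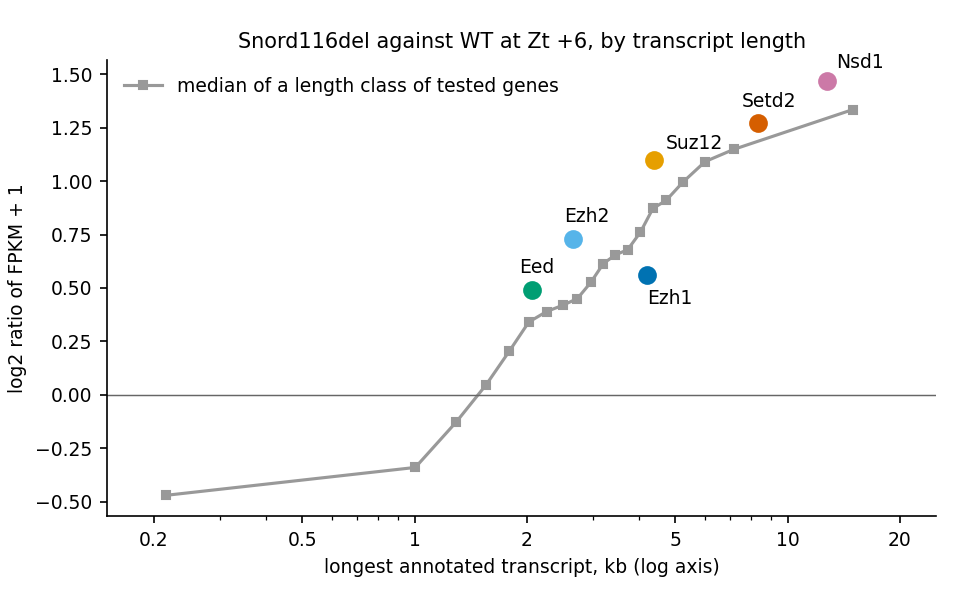
Log2 ratio of FPKM + 1 in Snord116del against WT at Zt +6, against the length of the longest annotated transcript in kb on a log axis. Grey squares are the medians of 20 equal classes of tested genes, placed at the geometric mean of the class limits, and coloured points are the 6 genes. All 6 genes lie within 0.32 of the class median.

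Cell type markers moved in the same comparison, in which 49.3% of all tested genes were higher by the rule and their median was 0.57. All 6 astrocyte markers were higher in *Snord116del* at Zt +6 by the rule, with a median log2 ratio of 1.39, and their summed level was 92.5 FPKM in WT and 287 in *Snord116del*. It was 46.3 and 66.9 FPKM in WT and *Snord116del* at Zt +16. All 3 tested endothelial markers were higher too, with a median of 1.10, and 5 of 9 neuronal markers were, with a median of 0.66. Of the 4 endothelial markers, 1 reached 1 FPKM in WT at Zt +6 and 0 did in either genotype at Zt +16. Some were thus tested only through *Snord116del* at Zt +6. Of the oligodendrocyte markers 3 of 6 were higher (median 0.73) and of the microglial markers 3 of 5 (median 0.68), while the precursor and progenitor lists had only 1 tested marker each, both higher (0.87 and 0.71). The precursor marker was below 1 FPKM in all groups except *Snord116del* at Zt +6. With the groups at the same median, 3 astrocyte, 1 endothelial, 3 neuronal, 1 oligodendrocyte and 1 microglial markers were higher. On that scale 1 neuronal and 2 oligodendrocyte markers were lower. Relative to length, 2 astrocyte, 1 endothelial, 3 neuronal, 3 oligodendrocyte and 2 microglial markers were higher, and 1 neuronal marker was lower. The summed level of 7 markers of dividing or progenitor cells was 5.61 and 10.7 FPKM at Zt +6 and 5.51 and 5.94 at Zt +16. Of the Zt +6 sums, *Sox2* alone made up 3.06 FPKM in WT and 5.64 FPKM in *Snord116del*, where 1 and 4 of the 7 markers reached 1 FPKM. Neuronal markers were present in all groups, at sums of 684 to 1080 FPKM. The part of these cell types in the levels of the 6 genes was not tested. The labels also tie both *Snord116del* mice and 1 of the 3 WT mice at Zt +6 to an earlier table, and the other 6 mice to the present one, and that split cannot be told apart from the Zt +6 *Snord116del* group. *Snord116* itself is listed at 0 in all 4 groups, so the table gives no check of the deletion. The neighbouring non-coding *Ipw* was lower in *Snord116del* at both times, at 3.4 against 21.6 FPKM at Zt +6 and 1.82 against 3.17 FPKM at Zt +16.

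At Zt +16 the genotypes were close for 5 of the 6 genes on the scale of FPKM + 1. None of the 4 tested genes passed the rule, where 19% of tested genes passed it as higher and 0.204% as lower. *Ezh1*, with a log2 ratio of 0.50, was above the median gene (0.35) and above 71.7% of tested genes. *Ezh2*, *Eed*, *Suz12*, *Setd2* and *Nsd1* were between 0.09 and 0.14, above 9.35% to 16.1% of tested genes. These directions depended on the scale. With every group at the same median, *Ezh1* was at 0.13 and *Ezh2* at 0.01, while *Eed* (-0.05), *Suz12* (-0.10), *Nsd1* (-0.15) and *Setd2* (-0.20) were lower in *Snord116del*. With every group at the same total FPKM, all 6 were lower, between -0.02 for *Ezh1* and -0.31 for *Setd2*.

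The genotype difference was larger at Zt +6 than at Zt +16 for all 6 genes as deposited, and for all but *Ezh1* under every scaling. The Zt +6 log2 ratio exceeded that at Zt +16 by 1.36 for *Nsd1*, 1.13 for *Setd2*, 0.99 for *Suz12*, 0.64 for *Ezh2*, 0.39 for *Eed* and 0.06 for *Ezh1*, where the median tested gene had 0.22. *Nsd1* was above 95.2% and *Setd2* above 89.1% of tested genes in this measure. *Ezh1* was below the median, and was at -0.28 with every group at the same median and at -0.22 after quantile normalization. The length class of *Nsd1* and *Setd2* had a median log2 ratio of 1.33 at Zt +6 and 0.18 at Zt +16. Relative to it, *Nsd1* was at 0.14 and -0.07 and *Setd2* at -0.06 and -0.04 at these times. *Suz12* was at 0.23 and -0.19 relative to its own class. With a pseudocount of 0.1, the Zt +6 log2 ratio exceeded that at Zt +16 by 1.11 for *Ezh2* and 0.66 for *Eed*. The excess was then 1.28 for *Setd2* and 1.58 for *Nsd1*.

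Between the times, all 6 genes were lower at Zt +16 than at Zt +6 in both genotypes, except that *Ezh1* in *Snord116del* was at 0.01 with every group at the same median. These comparisons share groups with the genotype comparisons above. In WT the log2 ratio was -0.69 for *Nsd1*, -0.36 for *Ezh1*, -0.35 for *Setd2*, -0.31 for *Suz12*, -0.30 for *Ezh2* and -0.23 for *Eed*, against a median of -0.04. *Nsd1* alone of the 4 tested passed the rule as lower, where 10.3% of tested genes did and 5.71% passed as higher. *Nsd1* no longer passed relative to its length class (-0.18), after quantile normalization (-0.54) or at a 2-fold threshold. In *Snord116del* the values were -2.05 for *Nsd1*, -1.48 for *Setd2*, -1.30 for *Suz12*, -0.94 for *Ezh2*, -0.63 for *Eed* and -0.41 for *Ezh1*, against a median of -0.24. *Nsd1*, *Setd2* and *Suz12* passed as lower, where 39.1% of tested genes did and 25% passed as higher. *Suz12* was tested only through its Zt +6 level in this genotype. Relative to the class of their transcript length, *Ezh1* was at 0.32, *Setd2* at 0.18, *Nsd1* at -0.39 and *Suz12* at -0.57 in *Snord116del*, and none passed the rule, where 25% of tested genes passed as higher and 24.8% as lower. In WT, *Setd2* was then at 0.15. With a pseudocount of 0.1, *Ezh2* was at -0.99 in WT, near *Nsd1* (-1.05). In *Snord116del*, *Ezh2* was at -2.10 with that pseudocount, beyond *Suz12* (-1.96) and *Setd2* (-1.74).

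The partners of PRC2 showed a mixed picture at Zt +6. Of 8 accessory genes, 7 were tested and 3 were higher in *Snord116del* by the rule, where 49.3% of all tested genes were, and the list median of 0.57 was the same as that of all genes. With the groups at the same median 2 were higher and 1 lower, and relative to length 2 were higher and 2 lower. The 3 that were higher as deposited were *Mtf2* (1.24 and 6.02 FPKM in WT and *Snord116del*), which recruits PRC2 to CpG islands, the histone-binding subunit *Rbbp7* (6.18 and 16.8), and *Aebp2* (1.42 and 4.83), a DNA-binding cofactor. *E130012A19Rik* went the other way without passing (20.3 and 14.4 FPKM), and at Zt +16 it alone passed as higher (27.4 and 54.4). There 19% of all tested genes passed as higher, and *E130012A19Rik* did not pass with the groups at the same median or relative to length. In *Snord116del* between the times, *Rbbp7*, *Jarid2*, *Aebp2* and *Mtf2* were lower at Zt +16 and *E130012A19Rik* higher, and in WT none passed. Over all tested genes, 39.1% were lower and 25% higher in *Snord116del*. With the groups at the same median 3 of the list were lower and 1 higher, and relative to length 2 were lower and 3 higher.

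PRC1, the complex that binds methylated H3K27 and ubiquitylates histone H2A, had 11 of 17 tested genes higher in *Snord116del* at Zt +6 and none lower, with a median of 0.77, where 49.3% of all tested genes were higher and their median was 0.57. *Bmi1*, a core subunit, stood at 2.93 FPKM in WT and 15.6 FPKM in *Snord116del*, and *Phc3*, a polyhomeotic subunit, at 1.32 and 5.13. *Phc3* was below 1 FPKM in both genotypes at Zt +16 and reached the mean of 1 FPKM only through *Snord116del* at Zt +6. With the groups at the same median, 3 were higher and 3 lower, and relative to length 4 were higher and 3 lower. At Zt +16 *Cbx6* alone passed (16.8 and 27.1 FPKM), where 19% of all tested genes passed as higher. It did not pass with the groups at the same median or relative to length. From Zt +6 to Zt +16, *Phc3* and *Pcgf3* were lower by the rule in WT, where 10.3% of all tested genes were, and relative to length none passed. In *Snord116del* 9 genes were lower and 1 higher, where 39.1% of all tested genes were lower and 25% higher. With the groups at the same median, 4 were lower and 4 higher in *Snord116del*, and relative to length 5 were lower and 3 higher. Of the H3K27 demethylases only *Kdm6b* was tested, at 1.55 and 4.26 FPKM in WT and *Snord116del* at Zt +6 and 0.501 and 0.454 at Zt +16. It reached the mean of 1 FPKM only through *Snord116del* at Zt +6. It was higher in *Snord116del* at Zt +6 and lower at Zt +16 than at Zt +6 in both genotypes. Relative to length it passed the rule in none of these comparisons.

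The other H3K36 methyltransferases had 4 of 5 tested genes higher in *Snord116del* at Zt +6, with a median of 1.35, against 49.3% and 0.57 over all tested genes. *Ash1l* stood at 3.96 FPKM in WT and 16 FPKM in *Snord116del*, and *Whsc1* and *Whsc1l1*, the close relatives of *Nsd1*, were at 2.58 and 8.29 and at 1.69 and 5.87. *Setd3*, whose product is known to methylate actin, was the fourth (12.7 and 20.3). With the groups at the same median 3 of the 5 were higher, and relative to length none passed. At Zt +16 *Smyd2* alone passed (5.03 and 8.86 FPKM), where 19% of all tested genes passed as higher. It did not pass with the groups at the same median or relative to length. *Ash1l* and *Whsc1* were lower at Zt +16 than at Zt +6 in WT by the rule, as were *Nsd1* and 10.3% of all tested genes. In *Snord116del*, *Ash1l*, *Whsc1* and *Whsc1l1* were lower and *Smyd2* higher at Zt +16, where 39.1% of all tested genes were lower and 25% higher. Relative to length, 1 gene of the list was lower in WT, and 1 was lower and 0 were higher in *Snord116del*.

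Enzymes that remove H3K36 methylation and proteins that read it were compared in the same way, beside the 49.3% of all tested genes that passed as higher at Zt +6 and their median of 0.57. Of 5 tested demethylases 4 were higher (median 0.77), *Kdm2a* (1.89 and 7.32 FPKM), *Kdm4b* (3.16 and 6.25), *Kdm4c* (0.892 and 2.22) and *Kdm4a* (1.86 and 3.65), while *Kdm2b* (1.95 and 2.96) did not pass. Of 7 tested readers 5 were higher (median 0.82). They were *Zmynd11* (10.9 and 31), which binds methylated H3K36, *Dnmt3a* (2.6 and 6.51), a DNA methyltransferase with a domain for this mark, *Psip1* (6.38 and 14.3), *Brpf1* (0.966 and 2.48) and the mismatch repair gene *Msh6* (0.988 and 2.23), while *Morf4l1* (64.9 and 94.8) and *Mum1* (2.57 and 3.25) did not pass. Of 4 genes of RNA polymerase II elongation 3 were higher (median 0.72), *Iws1* (0.817 and 2.62), *Supt6h* (10.8 and 19.2) and *Polr2a* (15.5 and 25.2). *Iws1*, *Kdm4c* and *Msh6* were below 1 FPKM in all groups except *Snord116del* at Zt +6, and *Brpf1* reached at most 1.03 FPKM in the others. These genes were thus tested only through that group. With the groups at the same median, 1 demethylase, 1 reader and 0 elongation genes were higher. Relative to length, none of the demethylases and elongation genes passed, and 1 reader was lower. None of these 3 lists had a gene past the rule at Zt +16, where 19% of all tested genes passed as higher. From Zt +6 to Zt +16, *Kdm2a* was lower in WT, where 10.3% of all tested genes were, and relative to length it did not pass. In *Snord116del*, 2 demethylases (*Kdm2a* and *Kdm4c*), the same 5 readers and 1 elongation gene (*Iws1*) were lower. Over all tested genes, 39.1% were lower and 25% higher there. With the groups at the same median, 2 demethylases, 2 readers and 1 elongation gene were lower in *Snord116del*. Relative to length, 1 demethylase and 2 readers were lower, while 1 demethylase, 1 reader and 3 elongation genes were higher.

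**Figure D5:**
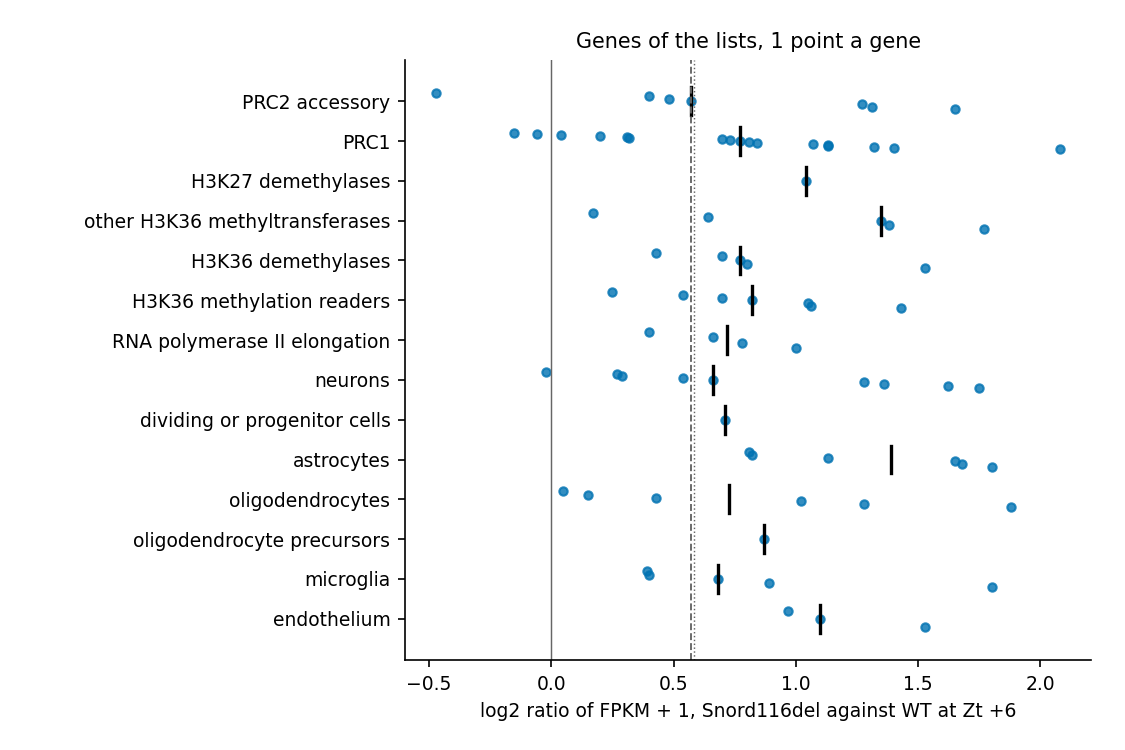
Log2 ratio of FPKM + 1 in Snord116del against WT at Zt +6 for the tested genes of each list, 1 point a gene, with the list median as a black line. The solid line is 0, the dashed line the median of all tested genes (0.57) and the dotted line a 1.5-fold difference. Astrocyte markers and the other H3K36 methyltransferases have the highest list medians, 1.39 and 1.35.

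The classical targets of PRC2, 43 genes such as those of the *Hox* clusters, were below 0.5 FPKM in every group. Their levels ran from 0.058 to 0.28 FPKM in WT and from 0.029 to 0.4 in *Snord116del* at Zt +6, and from 0.038 to 0.33 and 0.059 to 0.38 at Zt +16. None was tested. *Ezh2* was within that range at Zt +16, where 11 of the 43 lay above it in WT and 4 in *Snord116del*. At Zt +6 *Ezh2* was above all 43 in both genotypes.

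The genes with the most similar pattern over the 4 groups were sought by the root mean square difference of centred log2(FPKM + 1). Of the 6 genes, *Suz12* and *Setd2* were the most alike, at 0.0827. *Nsd1* was nearest to *Setd2* (0.235), *Ezh1* to *Eed* (0.145) and *Ezh2* to *Eed* (0.125). Over all tested genes, the 3 nearest were *Tagln2*, *Akap1* and *2010107G23Rik* for *Ezh1* (0.0143 to 0.0244), *Fam123c*, *Adnp2* and *9930013L23Rik* for *Ezh2* (0.0122 to 0.0175) and *Dusp14*, *Hspa1b* and *Nrp2* for *Eed* (0.00969 to 0.0245). They were *Zfp398*, *Ubr1* and *Hcfc2* for *Suz12* (0.008 to 0.0116), *Upf1*, *Trappc8* and *Zfp191* for *Setd2* (0.00799 to 0.012), and *Kcnip2*, *4932438A13Rik* and *Rapgef2* for *Nsd1* (0.0116 to 0.0149). With 4 values a gene, each of the 6 had closer matches outside the group than within it. Far more genes were searched outside the group than within it, so this comparison cannot show how alike the 6 genes are.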

How the data were processed

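RNA-seq of cortex gave, for 9 mice, 1 deposited FPKM value per group and gene, which the authors made with TopHat2 2.0.5 and Cuffdiff 2.0.2 on mm9. The same table holds the authors' own log2 fold changes, q-values and significance calls between genotypes, which were not used here. For ChIRP, the authors aligned reads with Bowtie2 2.0.0, called peaks with MACS 1.4.2 in each library against 1 WT input and kept those under a false discovery rate of 5% and above 20-fold. The deposited fold over input is the authors' ratio, and 1 list, WT *116HG* replicate 2, has positions only. The input library was not analysed here.

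The table has 1 value per group, so the designed alternative to a limma fit, a fold rule, was used: FPKM + 1 had to differ 1.5-fold or more and the higher group to reach 1 FPKM, over the 10297 genes whose mean reached 1 FPKM. It carries no p-value. Symbols were looked up in a GENCODE gene set on NCBIM37, which is mm9 (21853 found, 98.7% of tested genes with a length). Peak sequences came from that genome. Members and lists were chosen with earlier results of these data known. Named are the 6 genes, per list the 2 largest differences in each direction past the rule and any gene needed to account for a count of 5 or fewer, and the 3 nearest patterns per gene. Of the genes this rule names, 1 is not reported here. Code was tested on simulated data. Tools were Python 3.11.15, numpy 2.4.6, pandas 2.3.3 and matplotlib 3.10.9.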

Additional observations from a re-analysis of the deposited data

How the results depend on the processing

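No paired analysis was possible because the table holds 1 value per group, and for the same reason no mouse could be left out. Of the 4 tested genes, the number past the rule at Zt +6 was 3 as reported, 4 with a pseudocount of 0.1 (*Ezh1* added), 2 with quantile normalization (*Suz12* lost), 1 after scaling all groups to a common median and 0 once the trend on length was taken out. It was 4 of 6 with no filter on low values (*Ezh2* added). At Zt +16 it was 0, and 1 (*Ezh1*) with a pseudocount of 0.1. In WT between the times it was 1 as reported, 2 with a pseudocount of 0.1, 3 with every group at the same total FPKM, and 0 with quantile normalization, with a 2-fold threshold or with the length trend removed. In *Snord116del* between the times it was 3, and 4 with every group at the same total FPKM (*Ezh1* added). It was 5 of 6 with no filter on low values and 0 with the length trend removed. Removing that trend turned *Setd2* to -0.06 at Zt +6 and to 0.18 between the times in *Snord116del*. With a mean of at least 5 FPKM required, none of the 6 genes was left to test.

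The number of genes with a larger difference at Zt +6 was 5 or 6 under every scaling. The number with a WT *116HG* peak was 5, and 6 with peaks counted up to 10 kb from the gene (*Ezh2* added) and 4 in the upper quartile of fold. Leaving out 1 replicate gave 2 (without replicate 1) to 5 (without replicate 2). The number with a replicated peak was 2, and 1 with peaks inside the gene, with a distance of 2 kb, with direct overlap, or without runs of A or T, 4 with a distance of 50 kb, and 0 with direct overlap and no such runs. The alternatives on runs and on exons were chosen after seeing the data. The cause of the other shifts was not tested.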
